A study of Mus musculus with 36 samples.

Results

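The insulin-like growth factor (IGF) system is described here through 10 of the 56748 genes in the deposited expression table, taken by name: *Igf1*, *Igf1r*, *Igfals* and *Igfbp1* to *Igfbp7*. RNA was sequenced from visceral white adipose tissue (visWAT, epididymal fat in the labels) and liver of the same 18 male C57BL/6J mice. *Mlkl* Adi-KO mice carried loxP-flanked *Mlkl* alleles and the Adipo-Cre transgene, which acts in mature adipocytes. *Mlkl* encodes a membrane-rupturing effector of necroptosis, an inflammatory form of cell death. WT mice were littermates that also carried the loxP-flanked alleles but no Cre. Genotype and diet gave 4 groups in each tissue, 8 in all: 4 WT and 4 *Mlkl* Adi-KO mice on normal chow diet (NCD), and 5 WT and 5 *Mlkl* Adi-KO mice on high-fat diet (HFD) for 16 weeks. Every library came from 1 mouse, so 36 libraries were analysed, and a mouse is named by its number in the labels. Hepatocytes of the knockout keep *Mlkl*, as do the cells of visWAT that are not adipocytes. The mice were 16 weeks old when the diets began and had free access to food. Any fast before tissue collection is not given in the sources used here.

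IGF1 is a hormone that growth hormone induces in the liver, the source of most of the circulating form, and it also acts as a local growth factor in tissues. It acts through the receptor tyrosine kinase encoded by *Igf1r*. In blood nearly all IGF1 is held by binding proteins (IGFBPs), chiefly in a complex of IGFBP3 and the acid-labile subunit encoded by *Igfals*. IGFBP1 is made in the liver, where insulin represses its transcription through FOXO1, and its blood level falls after a meal. IGFBP2 is also a liver product that is low in obesity. IGFBP4, IGFBP5 and IGFBP6 act mainly in tissues, and IGFBP7 binds IGFs weakly and is abundant in blood vessels.

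The genes lie at 8 places on 7 chromosomes of mm39, because 2 pairs are neighbours. *Igfbp1* (ENSMUSG00000020429, chr11:7147782-7152546, plus strand) and *Igfbp3* (ENSMUSG00000020427, chr11:7156086-7163923, minus strand) face each other with 3539 bases between their ends. *Igfbp2* (ENSMUSG00000039323, chr1:72863662-72891633, plus strand) and *Igfbp5* (ENSMUSG00000026185, chr1:72897091-72914043, minus strand) do so with 5457 bases between. The single genes are *Igf1* (ENSMUSG00000020053, chr10:87694127-87772904), *Igf1r* (ENSMUSG00000005533, chr7:67602575-67883416), *Igfals* (ENSMUSG00000046070, chr17:25084971-25100984), *Igfbp4* (ENSMUSG00000017493, chr11:98932070-98945218), *Igfbp6* (ENSMUSG00000023046, chr15:102052797-102057946) and *Igfbp7* (ENSMUSG00000036256, chr5:77497087-77555888). Of these, *Igfbp7* is on the minus strand and the others are on the plus strand.

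The promoter of *Igfbp1* is shown because that gene carried the genotype difference described here. It covers the 250 bases before the RefSeq start (promoter table of GRCm38.p6), which match once in GRCm39, at chr11:7147537-7147786 on the plus strand. Capitals mark the insulin-response core CAAAACA, at positions -108 to -102 counted from the start.
Igfbp1 promoter: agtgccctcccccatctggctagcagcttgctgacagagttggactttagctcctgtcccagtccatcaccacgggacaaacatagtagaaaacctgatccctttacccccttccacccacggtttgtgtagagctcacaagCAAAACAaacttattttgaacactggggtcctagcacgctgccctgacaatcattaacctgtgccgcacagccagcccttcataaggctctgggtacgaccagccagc

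All 10 genes had an entry, 13 promoters in all. These were searched on both strands for CAAAACA, for the FOXO core TGTTTAC and for the STAT5 motif TTCNNNGAA, none of which overlapped another. Of 32851 promoters in the table, 5.56% held CAAAACA, 3.17% held TGTTTAC and 7.02% held TTCNNNGAA. The *Igfbp1* promoter held CAAAACA and no exact match to the others. Such a search for exact letters cannot show that a FOXO site is absent. *Igfals*, a growth hormone target, has 3 promoters in the table. One held the STAT5 motif as TTCTCAGAA at -236 to -228, and another held it as TTCCTAGAA at -58 to -50 together with TGTTTAC at -242 to -236. No match was found in the promoters of the 8 remaining genes, which says only that these letters are not in these windows.

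The libraries held 20875463 to 30322171 reads on genes. Levels are given as FPKM, in which the authors divided fragments by gene length and by a library size. A fold change is a difference of log2(FPKM + 1) fitted with limma, is given with its SE, and understates changes of low genes. It was called when its p-value, adjusted with the Benjamini-Hochberg method over all genes with a mean of at least 0.5 FPKM, was under 0.05. On HFD *Mlkl* in visWAT was at 2.32 to 2.72 FPKM in the knockouts and at 4.58 to 6.28 in WT mice. On NCD it was at 1.96 to 2.49 against 2.29 to 5.11, where the library labelled WT of mouse 182 (2.29) was within the range of the knockouts. The visWAT library of WT NCD mouse 183 had 18.2% of its reads on the 6 seminal vesicle genes found. In the liver of WT NCD mouse 182 the summed level of 7 stellate cell markers was 112 FPKM, against 46.4 to 58.8 in the 3 other WT NCD livers. The 7 hepatocyte markers summed to 43324 FPKM or more in every liver and to 1976 or less in visWAT, and the 7 adipocyte markers to 4423 or more in visWAT and to 106 or less in liver. In both tissues fewer cells of a type and less RNA per cell cannot be told apart.

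In the liver of HFD-fed mice, *Igfbp1* was the 1 gene of the system called between genotypes, and it was lower in *Mlkl* Adi-KO mice. The 5 *Mlkl* Adi-KO livers had 12.9, 14.6, 15.1, 14.9 and 6.01 FPKM (mice 151, 152, 153, 156 and 157). The 5 WT livers had 50.4, 31.0, 30.3, 36.5 and 33.9 FPKM (mice 154, 155, 161, 162 and 164). The highest *Mlkl* Adi-KO value was below the lowest WT value, so the genotypes did not overlap. How many of all genes did the same was not computed. The mean was 12.7 ± 3.84 FPKM (SD, n = 5) against 36.4 ± 8.19 (SD, n = 5), a ratio of 0.349. The log2 fold change of -1.49 (SE 0.232, adjusted p = 0.0401 with limma) was the 10th lowest of 13215 genes tested. In this comparison 26 genes were called, which is 0.197% of those tested, and 12.6% had an unadjusted p under 0.05 with limma. A two-sided exact permutation test of the 10 mice gave an unadjusted p = 0.00794, the smallest it can give with 5 against 5 mice. Adjusted with the Benjamini-Hochberg method over the 72 permutation tests, that p was 0.0476. *Igfbp1* was singled out in this comparison with earlier results of these data known, so these p-values are not independent support. The adjusted p of limma lay close to the threshold and depended on which mouse was left out. It was 0.0144 without mouse 157, whose liver had the lowest level, and 0.0468 without mouse 152. Without any 1 of the 8 other mice it was between 0.0542 and 0.113, with log2 fold changes between -1.56 and -1.37. It was also above 0.05 with no filter on low genes (0.112) and with all 18 livers in the fit (0.0984). Tests on the recovered reads gave adjusted p-values of 0.0208 (edgeR's quasi-likelihood test) and 5.43e-09 (DESeq2).

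The same gene was far higher on NCD and did not separate the genotypes there. WT NCD livers had 84.0, 113, 194 and 96.7 FPKM, and *Mlkl* Adi-KO NCD livers had 201, 166, 43.5 and 111. Both groups ranged widely and overlapped. The log2 fold change was -0.03 (SE 0.464, adjusted p = 0.999 with limma). The change of the genotype difference from NCD to HFD was -1.45 on the log2 scale (SE 0.525, unadjusted p = 0.0132, adjusted p = 0.585 with limma). That interaction, with 2 genes called of 13248 (0.0151%), did not show that the genotype difference in *Igfbp1* differed between diets. In order of mean level the liver groups were *Mlkl* Adi-KO NCD, WT NCD, WT HFD and *Mlkl* Adi-KO HFD. The first pair overlapped, whereas each later group lay wholly below the one next to it in that order. *Mlkl* Adi-KO NCD and WT HFD livers did overlap, since mouse 197 (43.5 FPKM) lay within the WT HFD range of 30.3 to 50.4.

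**Figure D1:**
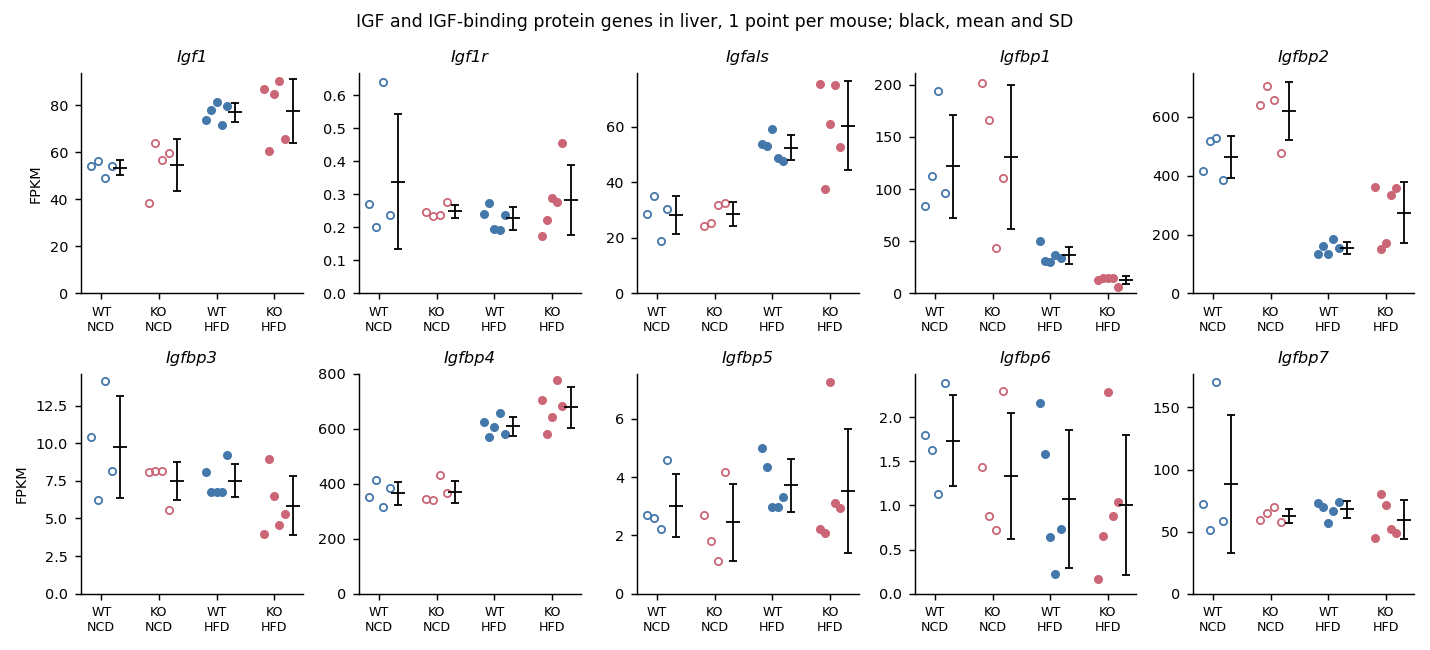
FPKM of the 10 genes in liver, 1 point per mouse (blue WT, red *Mlkl* Adi-KO, open NCD, filled HFD), with mean and SD in black; each panel has its own linear axis from 0. *Igfbp1* lies at 6.01 to 15.1 FPKM in HFD-fed *Mlkl* Adi-KO mice, below the 30.3 to 50.4 of HFD-fed WT mice, while the other genes overlap between genotypes on HFD.

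None of the 8 other genes tested in HFD liver was called between genotypes (adjusted p = 0.286 to 0.992 with limma). *Igfbp2* had the next largest fold change, in the opposite direction to *Igfbp1*. Its level was 360, 149, 172, 335 and 358 FPKM in *Mlkl* Adi-KO livers and 134, 160, 135, 184 and 155 in WT livers. The other 3 knockout mice, 151, 156 and 157, thus lay far above every WT mouse, while mice 152 and 153 were within the WT range. The log2 fold change of *Igfbp2* was 0.75 (SE 0.256, adjusted p = 0.286 with limma). *Igf1* itself was at 77.5 ± 13.5 FPKM (SD, n = 5) in *Mlkl* Adi-KO and at 76.9 ± 4.04 (SD, n = 5) in WT livers, with a log2 fold change of -0.01 (SE 0.110). *Igfals* was at 60.3 ± 16.0 and 52.4 ± 4.58 FPKM, and *Igfbp4*, the most abundant binding protein mRNA there, at 677 ± 73.0 and 608 ± 34.3. *Igfbp3*, which carries most of the circulating IGF1, was at 5.86 ± 1.96 and 7.52 ± 1.10 FPKM. *Igfbp7* was at 59.7 ± 15.5 and 68.1 ± 6.82 FPKM. *Igfbp5* (3.53 and 3.72) and *Igfbp6* (1.01 and 1.07) were low. *Igf1r* was at 0.175 to 0.455 FPKM in *Mlkl* Adi-KO and 0.190 to 0.273 in WT livers and was too low to be tested. The median log2 fold change of the 9 genes tested was -0.05, against 0.00 over all genes tested.

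Marker sums of cell types were also taken in the same livers, without a test, and the ranges of the genotypes overlapped for each list given here. The 7 adipocyte markers summed to 20.7, 73.9, 86.9, 23.2 and 12.9 FPKM in *Mlkl* Adi-KO mice 151, 152, 153, 156 and 157, and to 71.1 to 106 in WT mice, with none at 0. In WT livers on NCD they summed to only 9.41 to 26.7 FPKM. The sum thus differed with diet in liver, and it was not shown to count fat cells there. The 7 stellate cell markers summed to 43.3 to 80.1 against 64.7 to 82.8 FPKM. The 7 Kupffer cell and macrophage markers summed to 46.0 to 172 against 65.9 to 87.2, and the hepatocyte markers to 47457 to 57936 against 43324 to 50100. Knockout mice 152 and 153, whose adipocyte marker sums reached the WT range, had *Igfbp1* at 14.6 and 15.1 FPKM, below every WT liver. Their *Igfbp2* levels (149 and 172 FPKM) were within the WT range. The part of these marker sums, or of any cell type, in the results was not tested.

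Genes that share regulators with *Igfbp1* were counted in the same comparison. None of the listed genes was called, where only 0.197% of all genes tested were called, so the lack of calls says little. Of 13 genes tested in the list of liver genes linked to FOXO1, 6 had a fold change above 0 and 7 below (median -0.01). Among them *Pck1*, the rate-limiting enzyme of gluconeogenesis, was at -0.26 (SE 0.169, adjusted p = 0.577 with limma), and *G6pc*, which releases free glucose, at 0.60 (SE 0.231, adjusted p = 0.337 with limma). *Angptl8*, placed in that list although feeding and insulin raise it in liver, had the largest fold change of the list at 2.04 (SE 0.399, adjusted p = 0.0868 with limma). It was at 35.9 to 226 FPKM in *Mlkl* Adi-KO and 17.5 to 34.4 in WT livers, without overlap, a trait whose share over all genes was not computed. *Pck1*, *G6pc* and *Angptl8* were named here after their values were seen.

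Of 13 fasting genes under PPARA, 12 had a fold change below 0 (median -0.40, against 0.00 over all genes tested). Of these 13, 0 passed the test, where 0.197% of all genes did. Of 10 feeding genes that insulin induces, 7 were below 0 (median -0.24). Of 15 growth hormone and STAT5 targets, which include *Igf1* and *Igfals*, 9 were above 0 (median 0.07). The medians of the other lists were -0.16 (11 genes of the integrated stress response), -0.14 (11 glucocorticoid genes), 0.04 (13 clock genes), 0.03 (7 receptor and signalling genes), -0.15 (5 IGFBP proteases and inhibitors) and -0.12 (8 IGFBP-like genes).

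On NCD, 0 of 9 genes tested in liver were called between genotypes, with 1 gene called of 13193 (0.00758%). The adjusted p-values were 0.996 to 0.999 with limma. *Igfbp2* again had the largest fold change, 0.42 (SE 0.154, unadjusted p = 0.0244). It was at 642, 704, 658 and 476 FPKM in *Mlkl* Adi-KO and at 416, 519, 530 and 387 in WT livers, and the groups overlapped only through mouse 199. *Igf1* was at 54.7 ± 11.1 against 53.4 ± 3.19 FPKM (SD, n = 4 each), *Igfals* at 28.5 ± 4.28 against 28.2 ± 6.81 and *Igfbp4* at 370 ± 41.5 against 366 ± 42.0.

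**Figure D2:**
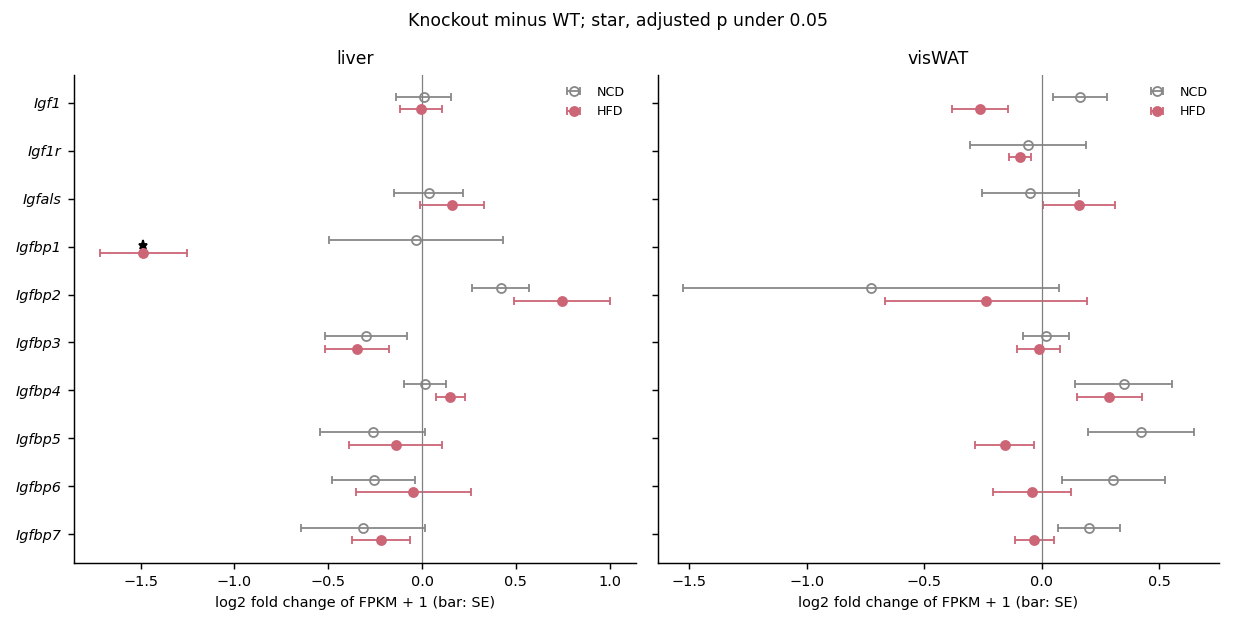
Log2 fold change of FPKM + 1, *Mlkl* Adi-KO minus WT, with SE, for the 10 genes in liver (left) and visWAT (right), open on NCD and filled on HFD; a star marks an adjusted p under 0.05. *Igfbp1* in HFD liver at -1.49 carries the 1 star; *Igf1r* in liver and *Igfbp1* in visWAT were not tested.

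In visWAT no gene of the system was called between genotypes on either diet. On HFD 3 of 13963 genes were called (0.0215%) with limma, where 3003 (21.5%) had an unadjusted p under 0.05. On NCD 0 of 14063 (0.0%) were called with limma, where 528 genes had an unadjusted p under 0.05, edgeR called 0 and DESeq2 called 6. *Igf1* in HFD visWAT was at 11.2, 12.4, 15.1, 9.59 and 11.9 FPKM in *Mlkl* Adi-KO mice and at 15.9, 15.4, 14.0, 11.6 and 16.0 in WT mice. The groups overlapped, and the log2 fold change was -0.26 (SE 0.118, adjusted p = 0.232 with limma). *Igf1r* was at 0.769 to 0.877 FPKM in *Mlkl* Adi-KO and at 0.886 to 1.03 in WT mice on HFD. These groups did not overlap (ratio 0.871, unadjusted exact permutation p = 0.00794), yet the log2 fold change of -0.09 (SE 0.0483) had an adjusted p of 0.265 with limma. The share of all genes without overlap was not computed. *Igfbp4* was at 158 ± 34.9 FPKM against 127 ± 9.43 (SD, n = 5 each), with a log2 fold change of 0.29 (SE 0.139, adjusted p = 0.246 with limma).

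The remaining genes of HFD visWAT had fold changes between -0.24 (*Igfbp2*) and 0.16 (*Igfals*). On NCD the fold changes ran from -0.73 for *Igfbp2* to 0.42 for *Igfbp5*, all with an adjusted p of 0.916 or more with limma. The *Igfbp2* value rests on WT mouse 183, with 46.0 FPKM against 1.84 to 4.997 in the other WT mice and 2.21 to 5.13 in *Mlkl* Adi-KO mice. That is the library with seminal vesicle transcripts, whose part in its *Igfbp2* level was not tested. The interaction of genotype with diet in visWAT called 0 of 14136 genes (0.0%) with limma, where 1867 had an unadjusted p under 0.05, edgeR called 0 and DESeq2 called 25. For *Igf1* it was -0.43 (SE 0.173, adjusted p = 0.353 with limma), and for *Igfbp5* -0.58 (SE 0.256, adjusted p = 0.361 with limma).

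With HFD, 5 of 9 genes tested in WT liver were called, against 25.3% of all 13330 genes. *Igf1*, *Igfals* and *Igfbp4* rose, and *Igfbp1* and *Igfbp2* fell. In each of these the 5 HFD livers and the 4 NCD livers did not overlap (unadjusted exact permutation p = 0.00794, the smallest it can give). Overlap was examined for all 10 genes, called or not, and 37.5% of all genes tested had an unadjusted p under 0.05 with limma. The share of all genes without overlap was not computed.

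*Igf1* was at 54.4, 56.4, 48.9 and 54.1 FPKM in WT NCD livers and at 73.8, 78.0, 81.6, 71.8 and 79.5 in WT HFD livers, 1.44 times higher (log2 fold change 0.52, SE 0.0586, adjusted p = 0.000377 with limma). *Igfals* was at 28.4, 35.1, 18.9 and 30.4 against 53.8, 53.2, 59.1, 48.7 and 47.6 FPKM (0.90, SE 0.154, adjusted p = 0.00302). The mRNAs of the growth factor and of its carrier subunit thus both rose in WT liver. IGF1 protein and its blood level are not in these data. *Igfbp4*, a binding protein that restrains IGF action until it is cleaved, was at 351, 412, 315 and 385 against 624, 570, 607, 656 and 582 FPKM (0.74, SE 0.0848, adjusted p = 0.000393).

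*Igfbp1* fell by 1.66 on the log2 scale in WT liver (SE 0.239, adjusted p = 0.00119 with limma), from 122 ± 49.3 (SD, n = 4) to 36.4 ± 8.19 FPKM (SD, n = 5). *Igfbp2* was at 416, 519, 530 and 387 FPKM on NCD and at 134, 160, 135, 184 and 155 on HFD, a fall of similar size (-1.58, SE 0.126, adjusted p = 6.71e-05). It is the most abundant binding protein mRNA of WT NCD liver. *Igfbp3* (-0.29), *Igfbp5* (0.25), *Igfbp6* (-0.46) and *Igfbp7* (-0.21) were not called, with adjusted p-values of 0.237 to 0.665. *Igfbp7* was at 72.5, 51.6 and 58.6 FPKM in 3 WT NCD livers and at 170 in that of mouse 182, the one with the high stellate cell marker sum.

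In *Mlkl* Adi-KO liver, 4 of 9 genes were called, against 22.2% of all 13149 genes. *Igfals* rose by 1.02 (SE 0.198, adjusted p = 0.00589 with limma), from 24.1, 25.5, 31.7 and 32.5 FPKM to 75.5, 37.5, 60.9, 75.0 and 52.8. *Igfbp4* rose by 0.87 (SE 0.102, adjusted p = 0.00046), from 344, 341, 430 and 364 to 703, 580, 642, 777 and 681 FPKM. *Igfbp2* fell by 1.25 (SE 0.287, adjusted p = 0.0127), from 620 ± 99.2 (SD, n = 4) to 275 ± 105 FPKM (SD, n = 5). *Igfbp1* fell by 3.12 (SE 0.425, adjusted p = 0.00102), from 130 ± 68.9 to 12.7 ± 3.84 FPKM, a ratio of 0.0974. That was the 7th lowest fold change of the genes tested, whereas in WT liver *Igfbp1* ranked 49th. *Igf1* had a fold change of 0.50 (SE 0.168, adjusted p = 0.0577 with limma), and the diets overlapped (38.6 to 63.8 FPKM on NCD, 60.6 to 90.1 on HFD). It was called on the TPM scale (adjusted p = 0.0446 with limma), with all 18 livers (0.00976 with limma), with edgeR (0.0442) and with DESeq2 (0.0154). The interaction tests of genotype with diet gave an adjusted p of 0.585 or more for all 9 genes in liver, so that no diet effect was shown to differ between genotypes.

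**Figure D3:**
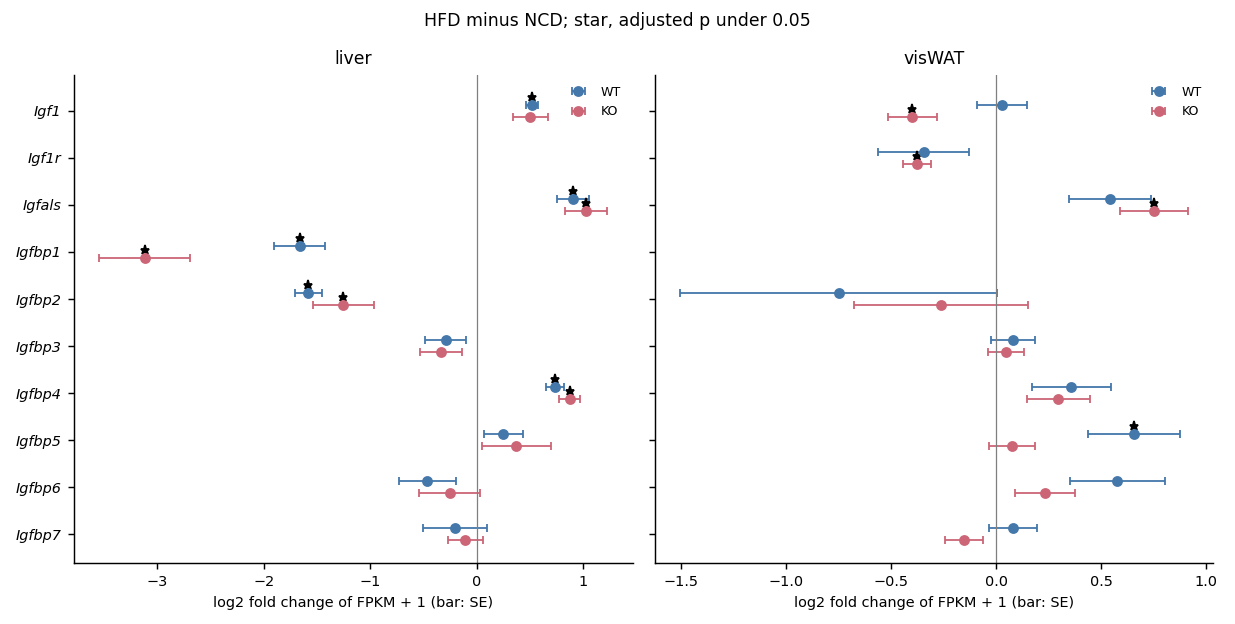
Log2 fold change of FPKM + 1, HFD minus NCD, with SE, for the 10 genes in liver (left) and visWAT (right), blue in WT and red in *Mlkl* Adi-KO mice; a star marks an adjusted p under 0.05. In liver *Igfbp1* (-1.66 and -3.12) and *Igfbp2* (-1.58 and -1.25) fell and *Igfals* and *Igfbp4* rose in both genotypes; the horizontal scales differ.

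The make-up of binding protein mRNA in liver moved with these changes. As a share of the summed FPKM of *Igfbp1* to *Igfbp7*, *Igfbp4* made up 35.3% ± 6.62 (SD, n = 4) in WT NCD and 69.2% ± 1.88 (SD, n = 5) in WT HFD livers. In *Mlkl* Adi-KO livers it made up 31.3% ± 5.02 and 65.8% ± 3.86. *Igfbp2* went from 43.9% ± 2.45 to 17.5% ± 1.90 in WT and from 51.7% ± 3.72 to 25.8% ± 7.09 in *Mlkl* Adi-KO livers. *Igfbp1* went from 11.3% ± 3.06 to 4.14% ± 0.841 and from 10.8% ± 5.28 to 1.27% ± 0.478. *Igfbp3*, *Igfbp5* and *Igfbp6* each stayed at or below 1.15% of the sum in every liver. The summed level was 1053 ± 139 and 878 ± 47.5 FPKM in WT livers and 1194 ± 120 and 1034 ± 150 in *Mlkl* Adi-KO livers on NCD and HFD.

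Related liver genes were called in both directions with HFD. Of the 13 FOXO1-linked genes tested in WT liver, 4 fell and 1 rose, where 25.3% of all genes were called. *Angptl8* fell by 2.23 (SE 0.240), *Pck1* by 1.14 (SE 0.195) and *Ppargc1a*, a coactivator of gluconeogenesis, by 1.09 (SE 0.112), with adjusted p-values up to 0.00303. In *Mlkl* Adi-KO liver 3 fell and 1 rose, where 22.2% of all genes were called, with *Pck1* at -1.31 (SE 0.183, adjusted p = 0.0012), *Ppargc1a* at -1.003 (SE 0.197, adjusted p = 0.00639) and *Trib1*, a pseudokinase that limits lipogenesis, at 0.82 (SE 0.147, adjusted p = 0.00416). *Angptl8* was at 124 ± 38.0 and 25.4 ± 6.90 FPKM in WT and at 104 ± 66.4 and 122 ± 68.1 in *Mlkl* Adi-KO livers on NCD and HFD.

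Of 15 growth hormone and STAT5 targets, 3 rose and 0 fell in WT liver, where 25.3% of all genes were called. The 3 were *Cish*, a feedback inhibitor induced by STAT5 (1.82, SE 0.294, adjusted p = 0.00228), *Igfals* and *Igf1*. In *Mlkl* Adi-KO liver, where 22.2% of all genes were called, 6 rose and 1 fell. They included *Elovl3*, a fatty acid elongase (-3.51, SE 0.244, adjusted p = 3.93e-05), and *Mup1*, a major urinary protein (2.77, SE 0.417, adjusted p = 0.00171), and *Igfals*. Of 7 receptor and signalling genes tested in WT liver 2 fell, and of 6 tested in *Mlkl* Adi-KO liver 1 rose. The same 25.3% and 22.2% of all genes were the background. *Irs1* fell by 0.44 (SE 0.0733, adjusted p = 0.0026) and *Igf2r*, which clears IGF2, by 0.30 (SE 0.097, adjusted p = 0.0473) in WT liver. *Ghr*, the growth hormone receptor, rose by 0.45 (SE 0.082, adjusted p = 0.00433) in *Mlkl* Adi-KO liver.

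Further lists were counted against the same background, 25.3% of all genes called in WT and 22.2% in *Mlkl* Adi-KO liver. In WT liver 6 of 13 genes of the integrated stress response fell and 1 rose (median -0.49, against 0.00 over all genes tested), with *Trib3* at -1.56 (SE 0.125), *Chac1* at 1.86 (SE 0.268) and *Gdf15* at -1.39 (SE 0.339). In *Mlkl* Adi-KO liver 3 of 12 fell and 0 rose (median -0.46). Of 10 feeding genes, 4 rose and 5 fell in WT liver and 2 rose and 3 fell in *Mlkl* Adi-KO liver. The largest in WT liver were *Pnpla3* (-2.02), *Thrsp* (1.95) and *Scd1*, the stearoyl-CoA desaturase (-1.39), and in *Mlkl* Adi-KO liver *Scd1* (-2.002), *Thrsp* (1.83) and *Me1* (-1.78). Of 13 fasting genes under PPARA, 3 rose and 4 fell in WT and 2 rose and 5 fell in *Mlkl* Adi-KO liver, led in both by a fall of *Cyp4a14*, a fatty acid hydroxylase (-2.34 and -3.26). Of 11 glucocorticoid genes, 3 rose and 4 fell in each genotype, with *Zbtb16* at -2.91 and -1.86.

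Clock genes were called in both directions. In WT liver 8 of 14 rose and 4 fell, and in *Mlkl* Adi-KO liver 8 rose and 3 fell, against 25.3% and 22.2% of all genes called in either direction. *Nr1d1* was at -2.45 and -1.93, *Per2* rose by 1.98 and 1.94 and *Per3* rose by 1.81 and 2.01. The time of collection is not given in the sources used here, and the part of the clock in the diet differences of *Igfbp1* was not tested. IGFBP proteases and inhibitors had 0 calls in liver in either genotype (6 and 5 genes tested), and of 7 IGFBP-like genes *Ccn1* (-1.78) and *Ccn2* (-1.03) fell in WT and *Ccn2* (-1.09) in *Mlkl* Adi-KO liver.

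The genes whose pattern over the 18 livers was most like that of *Igfbp1*, by Pearson's r of log2(FPKM + 1) among 10254 genes, were *Irf2bp2* (r = 0.944), *Gsta2* (0.907), *Ptpn9* (0.905), *Pdcl3* (0.905) and *Abca8b* (0.900). *Irf2bp2* was at 23.7 and 24.2 FPKM in WT and *Mlkl* Adi-KO NCD livers and at 14.6 and 9.34 in HFD livers. *Gsta2*, a glutathione transferase, was at 44.1, 40.1, 16.8 and 11.9 FPKM in the same order. Within the system, *Igfbp4* (r = -0.901) and *Igfals* (-0.832) ran opposite to *Igfbp1*, and *Igfbp2* gave r = 0.555 and *Igfbp3*, its neighbour, 0.565. For *Igf1* the most alike were *Nrep* (0.911), *Stk19* (0.909), *Ly6g2* (0.901), *Fah* (0.897) and *B4galt1* (0.896), while *Igfals* gave 0.899. The 18 points share 2 diets and 2 genotypes, so these values hold the differences between groups and are a description.

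**Figure D4:**
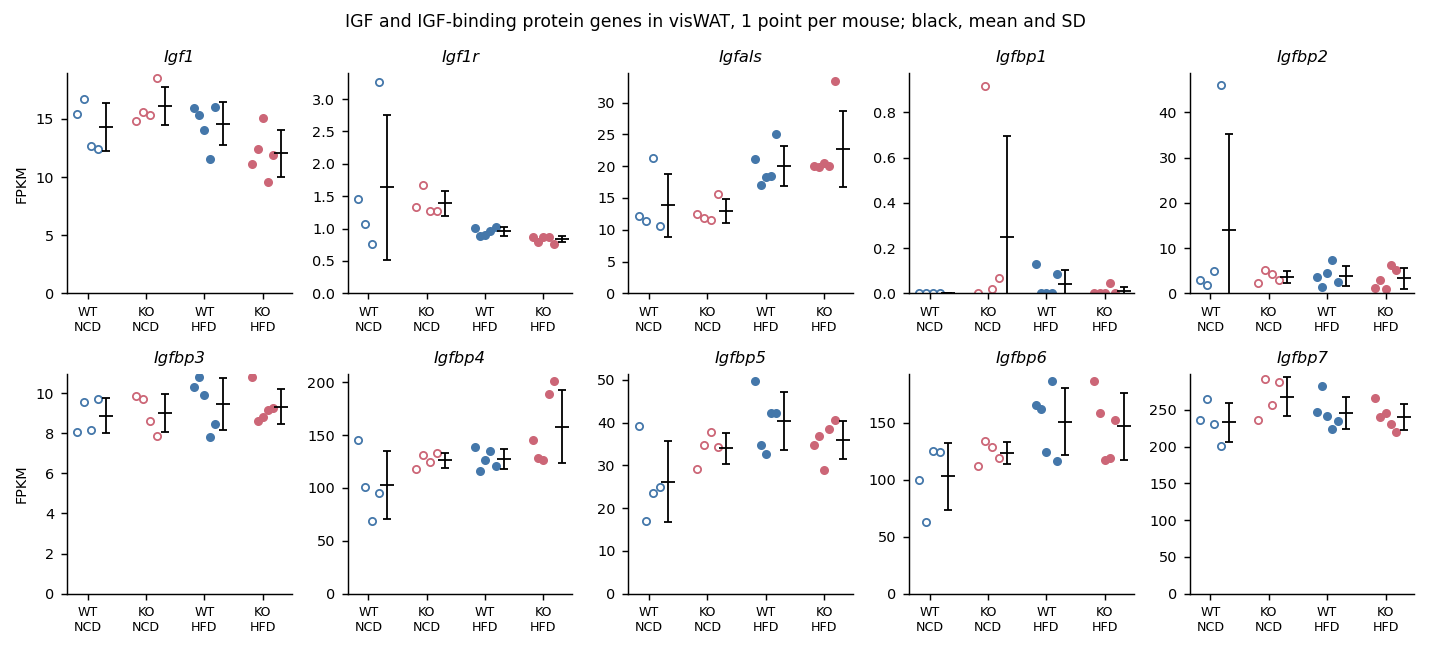
FPKM of the 10 genes in visWAT, 1 point per mouse (blue WT, red *Mlkl* Adi-KO, open NCD, filled HFD), with mean and SD in black; each panel has its own linear axis from 0. The single high points are *Igfbp2* (46.0) and *Igf1r* (3.26) of WT NCD mouse 183 and *Igfals* (33.4) of *Mlkl* Adi-KO HFD mouse 157; *Igfbp1* is near 0 throughout.

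With HFD, 1 of 9 genes tested in WT visWAT was called, against 37.8% of all 14161 genes. Whether diet effects differed between tissues was not tested. That gene was *Igfbp5*, a matrix-bound binding protein, at 39.3, 16.9, 23.6 and 24.9 FPKM on NCD and 49.8, 34.8, 32.7, 42.2 and 42.3 on HFD. Its log2 fold change was 0.65 (SE 0.218, adjusted p = 0.0410 with limma), and NCD mouse 165 lay within the HFD range. *Igfals* (0.54, SE 0.195, adjusted p = 0.0537) and *Igfbp6* (0.58, SE 0.227, adjusted p = 0.0732) had adjusted p-values just above the threshold. The *Igfbp5* call was lost in 7 of 9 fits that left out 1 mouse, with HFD mice 154, 155, 162 and 164 and NCD mice 180, 182 and 183 (adjusted p = 0.057 to 0.105 with limma). Without the 2 libraries of mice 182 and 183, which stand apart, *Igfals* (0.71, adjusted p = 0.00377) and *Igfbp6* (0.90, adjusted p = 0.0132) were called and *Igfbp5* (0.61, adjusted p = 0.117) was not. Without mouse 182 alone the same change of calls occurred, with *Igfals* at 0.75 (adjusted p = 0.00146).

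In *Mlkl* Adi-KO visWAT 3 of 9 genes were called, against 43.7% of all 14026 genes. *Igf1* fell by 0.40 (SE 0.117, adjusted p = 0.0217 with limma), from 14.9, 15.6, 15.3 and 18.5 FPKM on NCD to 11.2, 12.4, 15.1, 9.59 and 11.9 on HFD, and *Igf1r* fell by 0.38 (SE 0.0665, adjusted p = 0.00226), from 1.33, 1.68, 1.28 and 1.27 to 0.877, 0.801, 0.866, 0.864 and 0.769. Without NCD mouse 199 the *Igf1* value had an adjusted p of 0.0633, and with all 18 visWAT libraries in the fit that of *Igf1r* was 0.0817. *Igfals* rose by 0.75 (SE 0.162, adjusted p = 0.00563), from 12.5, 11.9, 11.6 and 15.7 to 19.99, 19.8, 20.5, 20.02 and 33.4 FPKM. The HFD and NCD mice did not overlap for *Igf1r* and *Igfals* (unadjusted exact permutation p = 0.00794 each). In this comparison 52.4% of all genes tested had an unadjusted p under 0.05 with limma, and the share without overlap was not computed. In WT visWAT *Igf1* was at 15.4, 16.7, 12.7 and 12.4 FPKM on NCD and 15.9, 15.4, 14.0, 11.6 and 16.0 on HFD, with a log2 fold change of 0.03 (SE 0.120, adjusted p = 0.880). *Igfbp4* (0.36 and 0.30), *Igfbp3* (0.08 and 0.05), *Igfbp7* (0.08 and -0.15) and *Igfbp2* (-0.75 and -0.26) were not called in WT or *Mlkl* Adi-KO visWAT.

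Cell type markers moved with HFD in visWAT. The 7 adipose macrophage markers summed to 40.7 to 89.3 FPKM in WT and 50.5 to 78.5 in *Mlkl* Adi-KO mice on NCD, and to 513 to 816 and 167 to 717 on HFD. The 7 fibroblast and progenitor markers summed to 202 to 274 and 259 to 307 on NCD, and to 516 to 647 and 268 to 678 on HFD. None of the markers in either list was at 0, and their part in the diet changes of the IGF genes was not tested.

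Of the receptor and signalling genes, 3 of 8 fell and 2 rose with HFD in WT visWAT, where 37.8% of all genes were called (3108 rose and 2239 fell). In *Mlkl* Adi-KO visWAT 6 of 9 fell and 1 rose, where 43.7% of all genes were called (3272 rose and 2853 fell). The same shares of all genes are the background of the other lists in visWAT. *Igf2r* rose by 1.03 (SE 0.082), and *Insr* fell by 0.81 (SE 0.140) and *Irs1* by 0.66 (SE 0.0948) in WT mice. *Irs2* fell by 1.14 (SE 0.143), *Insr* by 0.75 (SE 0.0985) and *Irs1* by 0.72 (SE 0.0914) in *Mlkl* Adi-KO mice, all with adjusted p-values up to 0.00156. Of the IGFBP proteases and inhibitors, *Mmp2* (2.16, SE 0.149), *Ctsd* (1.33, SE 0.340) and *Htra1* (1.03, SE 0.123) rose in WT visWAT, where 3 of 7 tested rose and 1 fell. In *Mlkl* Adi-KO visWAT *Ctsd* (1.32) and *Htra1* (0.84) rose and *Stc1* (-0.37), an inhibitor of the IGFBP4 protease PAPP-A, fell, 3 of 8 tested.

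Of the growth hormone and STAT5 targets, 2 of 12 fell and 1 rose in WT visWAT, against 37.8% of all genes called. There *Stat5a* was at -0.97 (SE 0.108), *Ghr* at -0.64 (SE 0.168) and *Cyp7b1* at 0.37 (SE 0.0802). In *Mlkl* Adi-KO visWAT, with 43.7% of all genes called, 6 of 12 fell, *Stat5a* (-0.65), *Ghr* (-0.56) and *Igf1* among them, and *Igfals* rose. *Igf2*, the other IGF ligand, was not above 0.0589 FPKM in any library. Of the IGFBP-like genes, 4 of 11 rose and 1 fell in WT and 3 rose and 0 fell in *Mlkl* Adi-KO visWAT, *Ccn5* (1.75 and 2.33) and *Htra3* (1.26 and 1.27) among them.

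All 10 genes were called between visWAT and liver over 36 libraries, where 88.8% of 14657 genes were called, so that the calls themselves say little. Liver had more *Igf1* (48.9 to 81.6 FPKM in WT livers, 11.6 to 16.7 in WT visWAT), *Igfals*, *Igfbp1*, *Igfbp2* and *Igfbp4*. The log2 differences, visWAT minus liver, were -2.11 (*Igf1*, SE 0.0654), -1.20 (*Igfals*, SE 0.0971), -6.06 (*Igfbp2*, SE 0.253) and -1.94 (*Igfbp4*, SE 0.0721). *Igfbp1* was at 0 in 12 of 18 visWAT libraries and at most 0.918 FPKM in the rest, so that its fitted difference depends on the pseudocount and is not given as a size.

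VisWAT had more *Igfbp6* (5.88, SE 0.129), *Igfbp5* (3.10, SE 0.122), *Igfbp7* (1.87, SE 0.101), *Igf1r* (0.76, SE 0.0677) and *Igfbp3* (0.28, SE 0.0829). *Igfbp6*, which prefers IGF2, was at 62.7 to 187 FPKM in visWAT and at 0.165 to 2.38 in liver. The receptor *Igf1r* was at 0.765 to 3.26 FPKM in visWAT and at 0.175 to 0.641 in liver, the reverse of its ligand. *Igfbp3* overlapped between tissues, at 7.80 to 10.8 FPKM against 3.97 to 14.1. With the mouse as a replicate block, all 10 genes remained called, with *Igfbp3* at an adjusted p of 0.00863 with limma. Divided by the reads on genes, the library size behind FPKM gave a ratio of 1.01 to 1.40 for visWAT and of 0.737 to 0.812 for liver. On the TPM scale the median difference of all genes was 0.72 instead of -0.02, and *Igfals* stood at -0.27, *Igf1* at -1.18 and *Igfbp3* at 1.14, in the same directions.

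In visWAT *Igfbp7* had the largest share of the summed *Igfbp1* to *Igfbp7* FPKM, 48.1% ± 7.73 in WT and 47.4% ± 1.57 in *Mlkl* Adi-KO mice on NCD (SD, n = 4 each) and 42.7% ± 3.82 and 40.7% ± 4.20 on HFD (SD, n = 5 each). *Igfbp6* and *Igfbp4* followed with group means of 21.1% to 25.9% and 20.8% to 26.6%, and *Igfbp5* with 5.30% to 6.99%. The binding protein mRNA of visWAT was thus mostly *Igfbp7*, *Igfbp6* and *Igfbp4*, and that of liver mostly *Igfbp4* and *Igfbp2*. The pathway genes differed between tissues too. *Htra1* (5.12) and *Mmp2* (3.47) were among 5 IGFBP proteases and inhibitors higher in visWAT, while *Plg*, the plasmin precursor made by liver, was lower (-8.83). *Insr* (-1.51) and *Grb14* (-1.78) were lower in visWAT, and *Grb10* (1.88) was higher.

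**Figure D5:**
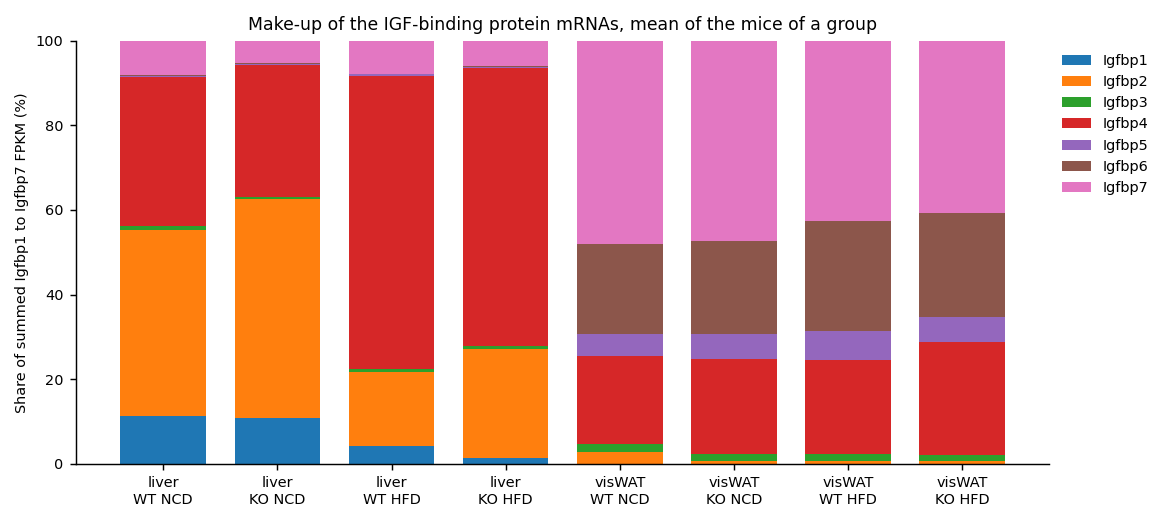
Share (%) of each gene in the summed FPKM of *Igfbp1* to *Igfbp7*, as the mean over the 4 (NCD) or 5 (HFD) mice of a group, in liver (left 4 bars) and visWAT (right 4 bars). *Igfbp4* rises from 35.3% to 69.2% in WT liver as *Igfbp2* and *Igfbp1* shrink, whereas *Igfbp7* leads in visWAT at 40.7% to 48.1%.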

How the data were processed

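RNA was taken from visWAT and liver of 18 mice. Per the labels and methods, the authors sequenced poly(A) libraries as 150-base pairs, trimmed them with fastp, aligned them to mm39 with HISAT2 and counted reads with featureCounts 1.5.0-p3; strandedness and annotation release are not given in the sources used here. The authors deposited FPKM for every library, and raw counts and gene lengths with them. The deposited counts cover only genes listed per comparison, so they served only to recover reads: 100% of values were whole reads within 0.01. The authors' own fold changes and p-values were not used, and 72 further columns of per-sample values were left out.

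Log2(FPKM + 1) was fitted with limma 3.58.1 (R 4.3.3, mean-variance trend) in the 2 groups compared, over genes with a mean of at least 0.5 FPKM, with Benjamini-Hochberg adjustment and a threshold of 0.05. Interactions used all 18 libraries of a tissue, and the tissue contrast all 36. Single genes were also compared by two-sided exact permutation tests (72 tests), whose smallest p is 0.00794, or 0.0286 with 4 against 4 mice. *Igf1r* in liver and *Igfbp1* in visWAT were below the filter. Libraries held 20875463 to 30322171 reads, and replicates differed by more than sampling noise (chi-square per gene of at least 9.82). Alternatives were another pseudocount, other filters, a TPM scale, edgeR 4.0.16 and DESeq2 1.42.0 on the recovered reads, all libraries of a tissue, and libraries left out. The scripts were tested on simulated data.

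Same-numbered libraries of the 2 tissues came from the same mouse per the labels, so the numbers pair them. Their deviations from group means correlated at r = -0.0516 to 0.223 over 18 mice. Genotype and diet groups share no mouse.

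All 10 genes are named throughout; from the gene lists, the called genes with the largest fold changes are named, and any other is marked as chosen after its values were seen. The genes and lists were chosen with earlier results of these data known.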

Additional observations from a re-analysis of the deposited data

Results flagged for a closer look

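In each gene and group of 4 or 5 mice, the highest or lowest mouse was compared with the rest by Dixon's gap ratio. Of 79 groups of values examined, 10 held a mouse that stood apart; chance alone would flag about 1 in 20.

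In liver, *Igfbp1* of *Mlkl* Adi-KO HFD mouse 157 was at 6.01 FPKM, below the 12.9 to 15.1 of the others in the group. *Igf1r* of WT NCD mouse 182 was at 0.641 FPKM against 0.200 to 0.270. *Igfbp3* of *Mlkl* Adi-KO NCD mouse 199 was at 5.58 FPKM against 8.10 to 8.15. *Igfbp5* of *Mlkl* Adi-KO HFD mouse 153 was at 7.24 FPKM against 2.09 to 3.12.

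In visWAT, *Igfals* stood apart in *Mlkl* Adi-KO HFD mouse 157, at 33.4 FPKM against 19.8 to 20.5, and in WT NCD mouse 182, at 21.2 against 10.6 to 12.1. *Igfbp2* of WT NCD mouse 183 was at 46.0 FPKM against 1.84 to 4.997. *Igf1r* of *Mlkl* Adi-KO NCD mouse 179 was at 1.68 FPKM against 1.27 to 1.33. *Igfbp1* of the same mouse was at 0.918 FPKM against 0 to 0.0679, and that of *Mlkl* Adi-KO HFD mouse 156 was at 0.0445 FPKM, with the others listed at 0.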

How the results depend on the processing

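In HFD liver the number of IGF genes called between genotypes went from 1 to 0 with no filter and with all 18 livers in the fit, where *Igfbp1* kept a log2 fold change of -1.49. Leaving out 1 mouse at a time gave 0 to 1 called genes and *Igfbp1* fold changes of -1.56 to -1.26. In WT visWAT with HFD, 1 gene was called, against 0 with no filter and with edgeR, 3 on the TPM scale and with all 18 libraries, 2 without mice 182 and 183, and 0 to 2 with 1 mouse left out. *Igfbp1* between genotypes in HFD liver lost its call in 10 of 17 alternatives, and *Igfbp5* in WT visWAT with HFD also in 10 of 17. Over all 24 single calls and 475 alternatives, 453 stayed called in the same direction, 22 lost the call and 0 reversed. That total leans on the 10 calls between tissues, which had 24 or 25 alternatives each and never lost a call. The cause of the losses was not tested. With the mouse as a replicate block, 10 of 10 genes stayed called between tissues, as did 13001 genes in all against 13010. Genotype and diet comparisons share no mouse, so no block could be fitted there.

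Counts over all genes moved more. Between genotypes in HFD liver 26 genes were called, 7 with no filter and 258 with DESeq2; in NCD liver 1, against 3 with no filter and with all livers and 17 with DESeq2. In HFD visWAT 3 were called, 9 with all libraries and 140 with DESeq2; in NCD visWAT 0, against 2 with no filter, 1 with all libraries, 3 without mice 182 and 183 and 6 with DESeq2. Interactions gave 2 calls in liver (4 at a mean FPKM of at least 1, 60 with DESeq2) and 0 in visWAT (25 with DESeq2). Between tissues 20864 genes were called with no filter. On the TPM scale the split of higher and lower calls went from 17 and 9 to 12 and 15 in HFD liver between genotypes, from 3108 and 2239 to 3990 and 228 in WT visWAT with HFD (3243 and 3553 with edgeR), and from 6361 and 6649 to 11227 and 2747 between tissues. That scale moved the median of all genes in WT visWAT with HFD from -0.01 to 0.34. It divides by the summed FPKM, which was 564718 in the visWAT library of WT NCD mouse 183, the one with seminal vesicle transcripts. In the other visWAT libraries that sum was 227793 to 309820. The part of this library in the shift was not tested. Groups of 4 and 5 mice limit all comparisons.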
